A study of Homo sapiens with 12 samples.

Results

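The TNF response of MDA-MB-231 cells that had received a p53 siRNA was read from 6 of the 12 arrays of the study, 3 from TNF-treated and 3 from untreated cultures. The arrays were taken by their labels. The line, MDA-MB-231, comes from a human breast cancer, and its p53, a tumour suppressor, is mutant. All cells were grown in 10% FBS and transfected with either a control siRNA or a p53 siRNA, and 48 h later were moved to 0.1% FBS, alone or with tumour necrosis factor alpha (TNF) at 10 ng/ml, for 20 h. The 4 groups were therefore control siRNA untreated, control siRNA with TNF, p53 siRNA untreated and p53 siRNA with TNF, each with 3 arrays called biological replicates in the labels. Every group carried an siRNA and low serum, and the siRNA sequences are not given in the sources used here. Total RNA was hybridised to 1-colour Illumina bead arrays, on which each probe gives a fluorescence intensity. Levels below are normalised log2 intensities, a log2 change is the TNF mean minus the untreated mean, and a log2 change of 1 is 2-fold. All the cells were of 1 line, so the p-values reflect only how these arrays vary.

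TNF is an inflammatory cytokine whose type I receptor recruits TRAF and RIP adaptor proteins and activates the IKK kinase complex. IKK releases NF-kB dimers from IkB inhibitors, and the dimers enter the nucleus, bind short GC-rich sites with an AT-rich centre and switch on chemokines, cytokines, adhesion molecules, survival genes and their own inhibitors. The same receptor activates JNK and p38, which act through AP-1 factors. In breast cancer cells such as these, the pathway is known for inducing secreted inflammatory factors and matrix-degrading enzymes.

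Untreated replicate 3 stood apart from the other arrays of its group. Its correlation with untreated replicates 1 and 2 over the 12507 genes tested was 0.974 and 0.977, that between replicates 1 and 2 was 0.987, and the TNF-treated arrays correlated at 0.993 with each other. In replicate 3, 551 genes were 2-fold or more away from the average of its group mates, against 209 for replicate 1, 100 for replicate 2 and 33 to 47 for the TNF-treated arrays. The median SD over genes was 0.259 among the untreated arrays, 0.156 without replicate 3 and 0.110 among the TNF-treated arrays. Results are therefore given with all arrays and without untreated replicate 3. Median intensities of the 12 arrays ranged from 226 to 266, and 19810 to 21157 of 47322 probes were detected at a detection p under 0.05. No slide or batch is named in the files used here.

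The p53 siRNA arrays carried most of the markers listed as high in the labelled line, and some of those listed as low. Of 8 markers listed as high in MDA-MB-231 cells, 7 were detected on all 6 arrays, among them VIM at a log2 level of 15.60 to 15.90 and AXL at 13.43 to 14.08. SPARC, the other member, did not pass the detection filter. The luminal markers CDH1, ESR1 and PGR did not pass the detection filter. KRT19, EPCAM and ERBB3, which were also listed as low, were detected on all 6 arrays, against that list. Their levels were 13.76 to 14.44, 9.82 to 10.66 and 7.26 to 8.41. GATA3, of the same list, was detected on 3 untreated and 2 TNF-treated arrays, and CLDN3 on 1 and 2. Of 12 leukocyte markers 5 were detected on all 6 arrays, CD68 at 12.33 to 13.21, CSF1R at 10.18 to 10.81, LYZ, CD14 at 8.74 to 9.69 and CD3D at 6.66 to 7.46, while PTPRC, CD3E, MS4A1 and NKG7 did not pass the filter. Of 6 endothelial markers PECAM1 was detected on all 6 arrays at 9.06 to 10.17, TIE1 was not detected on any of them, and CDH5, VWF, KDR and TEK did not pass the filter. Of 8 fibroblast markers LUM, COL1A1 and PDGFRB were detected on all 6 arrays, at 7.72 to 9.15, 7.54 to 8.07 and 6.69 to 7.96, and COL1A2, PDGFRA and THY1 did not pass the filter.

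Sequence was set beside the response for the genes with the largest rises. RefSeq promoters of GRCh38.p14, from 250 bases before to 50 bases after the start of the transcript, were searched on both strands for 2 motifs of the NF-kB type that can overlap each other. The first is GGGA and TTCC with any 2 bases between them, and the second is GGAA and TTCC with any 1 base between them. The promoters of the first 4 genes in the ranking of rises and of the host transcript of miR-146a are shown because they hold a match and belong to leading rises. CCL20 and PTGS2, next in the ranking, hold no match and are not shown. Matches are in capitals.

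IL32 (chr16:3065153-3065452, plus strand): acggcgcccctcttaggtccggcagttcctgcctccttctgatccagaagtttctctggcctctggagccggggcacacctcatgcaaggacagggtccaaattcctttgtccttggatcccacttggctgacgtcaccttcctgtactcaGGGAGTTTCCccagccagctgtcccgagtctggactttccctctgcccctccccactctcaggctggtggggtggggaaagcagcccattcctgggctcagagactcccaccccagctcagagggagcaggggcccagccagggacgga
IL6 (chr7:22726950-22727249, plus strand): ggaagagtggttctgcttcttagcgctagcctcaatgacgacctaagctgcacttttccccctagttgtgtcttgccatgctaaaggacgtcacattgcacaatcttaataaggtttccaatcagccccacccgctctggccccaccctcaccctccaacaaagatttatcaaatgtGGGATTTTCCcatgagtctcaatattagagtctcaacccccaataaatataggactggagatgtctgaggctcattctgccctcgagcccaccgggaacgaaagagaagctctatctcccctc
LTB (chr6:31582376-31582675, minus strand): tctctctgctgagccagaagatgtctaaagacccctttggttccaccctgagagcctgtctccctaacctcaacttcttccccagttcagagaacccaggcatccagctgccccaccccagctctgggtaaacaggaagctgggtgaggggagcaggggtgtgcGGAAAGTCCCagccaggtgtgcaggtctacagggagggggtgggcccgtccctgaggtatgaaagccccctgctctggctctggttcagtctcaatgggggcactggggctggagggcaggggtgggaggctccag
CXCL2 (chr4:74099146-74099445, minus strand): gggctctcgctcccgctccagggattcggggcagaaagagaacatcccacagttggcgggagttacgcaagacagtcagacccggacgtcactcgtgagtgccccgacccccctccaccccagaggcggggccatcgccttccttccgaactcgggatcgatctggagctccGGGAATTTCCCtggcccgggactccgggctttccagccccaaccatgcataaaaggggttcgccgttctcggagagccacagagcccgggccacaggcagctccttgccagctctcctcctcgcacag
MIR3142HG (chr5:160468001-160468300, plus strand): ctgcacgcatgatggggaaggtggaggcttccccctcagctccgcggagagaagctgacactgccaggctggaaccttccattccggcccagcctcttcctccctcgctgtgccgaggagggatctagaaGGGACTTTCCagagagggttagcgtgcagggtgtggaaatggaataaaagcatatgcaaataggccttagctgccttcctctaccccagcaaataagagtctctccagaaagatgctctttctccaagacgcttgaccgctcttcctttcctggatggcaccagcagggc

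The matches lie 99, 73, 86, 78 and 120 bases before the start of the transcript in IL32, IL6, LTB, CXCL2 and MIR3142HG, and in CXCL2 3 overlapping matches form 1 run. Either motif was present in 2.15% of the 27305 promoters in the table and in 2.19% of the 9985 promoters of tested genes. Among genes that rose with TNF the share was 6.67% (26 of 390 with a promoter), and among those that rose at least 2-fold it was 10.6% (13 of 123). Among genes that fell it was 1.91% (7 of 366). Of the 15 leading rises described below, 7 of the 14 with a promoter held a motif, the others being CXCL8 and CXCL1, and 0 of 7 leading falls did. These shares describe letters in a fixed window and were not tested, and a match is not a binding site.

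MIR3142HG, on the plus strand at chr5:160468251-160487426, is a long non-coding transcript whose span holds the precursors of miR-3142 and miR-146a. In human cells miR-146a is known to target the receptor adaptors IRAK1 and TRAF6. The RefSeq mature sequences are shown because the host transcript was among the leading rises, with the seed, bases 2 to 8, in capitals. The 3 seeds differ from each other, and the arrays did not measure the mature miRNAs.

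hsa-miR-3142 (chr5:160474492-160474513, plus strand): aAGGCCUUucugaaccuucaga
hsa-miR-146a-5p (chr5:160485372-160485393, plus strand): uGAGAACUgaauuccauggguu
hsa-miR-146a-3p (chr5:160485408-160485429, plus strand): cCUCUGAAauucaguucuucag

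With all arrays, 976 of 12507 genes (7.8%) passed an adjusted p of 0.05 for the TNF effect in p53 siRNA cells, 494 higher with TNF (3.95%) and 482 lower (3.85%). Of these, 157 (1.26%) rose and 85 (0.68%) fell by 2-fold or more. Without untreated replicate 3 the count was 1717 (13.7%), with 864 higher (6.91%) and 853 lower (6.82%). The calls shared by both fits were 902 genes (7.21%), 465 higher (3.72%) and 437 lower (3.49%). Another 815 genes were called only without the array and 74 only with it, and 0 genes were called with opposite signs. That no call made both ways changed direction follows largely from the arrays that the 2 fits share. The number of calls was higher without the array. On 2911 genes (23.3%) the 3 TNF-treated arrays did not overlap the 3 untreated ones, 1383 above (11.1%) and 1528 below (12.2%). This held for 972 of the 976 genes called with all arrays, so separate groups add little to a call. The median log2 change over all genes was −0.007, and −0.018 without replicate 3. Counts for gene lists below stand beside the shares of all genes, 3.95% higher and 3.85% lower, or 6.91% and 6.82% without replicate 3. A count near these shares is not a result about its list.

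Cytokines, chemokines and inflammatory enzymes led the rises. The leading genes were chosen among those whose TNF-treated and untreated arrays do not overlap. IL32, a cytokine that stimulates production of other inflammatory cytokines, had untreated levels of 6.69, 6.93 and 6.45 and TNF levels of 10.93, 11.20 and 10.92. The change was 4.32 ± 0.20 on the log2 scale (SE of the fit, 3 arrays per group, adjusted p = 1.07e-07). It was 4.21 without replicate 3 and 3.43 by the gene's other probe. All TNF-treated arrays lay far above all untreated ones, and replicate 3 was the lowest untreated array. Here and below, the SE after ± uses a spread for each gene that is pooled over all 4 groups. It is not the SE of the p53 siRNA arrays alone. It can be too small for genes that vary among the untreated p53 siRNA arrays, and too large for genes steady on the p53 siRNA arrays.

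IL6, the main inducer of the acute phase response, rose from 8.32, 8.06 and 7.54 to 11.64, 11.73 and 11.83, a change of 3.76 ± 0.17 (adjusted p = 1.07e-07) and 3.55 without replicate 3. Here too replicate 3 was the lowest untreated array, and the groups were widely separated. IL1A and IL1B encode the interleukin-1 cytokines, which act through their own receptor on NF-kB. IL1A was 8.02, 8.70 and 9.41 untreated and 11.78, 11.90 and 11.80 with TNF, a change of 3.12 ± 0.26 (adjusted p = 1.11e-05). For IL1A replicate 3 was the highest untreated array, and the change without it was 3.47. IL1B went from 10.21, 10.25 and 10.06 to 13.03, 13.06 and 13.08, a change of 2.88 ± 0.11 (adjusted p = 4.29e-08) and 2.83 without replicate 3. Its untreated arrays lay close together, replicate 3 included.

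Of 16 tested interleukins and colony-stimulating factors, 8 rose and 1 was called lower in both fits, and the median log2 change was 0.69 against −0.007 for all genes tested. The member called lower was IL7, a lymphocyte growth factor, at 6.28, 6.55 and 6.59 untreated and 5.98, 5.93 and 5.82 with TNF. It was not detected on any TNF-treated array. Its untreated mean of 6.47 did not lie above the detection floor of those arrays, so no fold is given and a fall is not established.

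The chemokines CXCL2, CXCL1 and CXCL8, which draw neutrophils, rose, and CXCL3, of the same family, did not pass the test. CXCL2 was at 7.14, 7.96 and 7.27 without TNF and at 11.14, 10.81 and 10.84 with it, a change of 3.47 ± 0.20 (adjusted p = 5.77e-07), and 3.37 without replicate 3. CXCL1 was 10.32, 10.93 and 9.89 untreated and 12.98, 13.25 and 13.22 with TNF, a change of 2.77 ± 0.21 (adjusted p = 6.52e-06) that became 2.52 without replicate 3, its lowest untreated array. CXCL8, or interleukin-8, had untreated values of 12.37, 12.44 and 12.83 and TNF values of 15.49, 15.51 and 15.21, a change of 2.86 ± 0.14 (adjusted p = 2.44e-07) and 3.0 without replicate 3. In none of the 3 genes did the groups overlap. Of 5 CXC chemokines tested, 4 rose in both fits, and the median change of 2.77 was the highest of the 52 gene lists. The member that did not pass was CXCL3, with a change of 0.02 (adjusted p = 0.981) and −0.15 without replicate 3.

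Among the CC and CX3C chemokines, 2 of 4 tested rose in both fits. CCL20, which attracts dendritic cells and Th17 cells through CCR6, went from 6.79, 6.84 and 6.53 to 10.25, 10.01 and 10.13, a change of 3.41 ± 0.15 (adjusted p = 1.07e-07) and 3.32 without replicate 3. CX3CL1, a membrane-tethered chemokine, spanned 6.16 to 6.78 untreated and 7.02 to 8.19 with TNF, a change of 1.12 ± 0.25 (adjusted p = 0.0159, and 0.0392 without replicate 3). Its groups were separate by a narrow gap, and the TNF-treated arrays varied more than for CCL20.

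PTGS2, the inducible cyclooxygenase that makes prostaglandin precursors, had untreated levels of 10.87, 10.65 and 11.37 and TNF levels of 14.26, 14.27 and 14.25. Its change was 3.30 ± 0.16 (adjusted p = 2.34e-07), 3.50 without replicate 3 and 3.29 by a second probe. The treated arrays were almost identical and replicate 3 was the highest of the untreated ones. PLA2G4C, a cytosolic phospholipase A2 that frees fatty acids from membranes, rose by 1.63 ± 0.25 (adjusted p = 0.00185). ALOX5AP, the activating protein of 5-lipoxygenase in leukotriene synthesis, was 9.61, 8.69 and 8.47 untreated and 7.48, 7.59 and 7.31 with TNF, and fell by 1.46 ± 0.24 (adjusted p = 0.00249). LTA4H, which makes leukotriene B4, fell by 0.35 ± 0.10 (adjusted p = 0.0422). Of 17 tested prostaglandin and lipid mediator genes, 5 rose and 2 fell in either fit, with a median of 0.20.

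SOD2, the mitochondrial manganese superoxide dismutase, was at 10.58, 10.66 and 10.79 untreated and 13.54, 13.52 and 13.45 with TNF, a change of 2.82 ± 0.11 (adjusted p = 4.29e-08). The value without replicate 3 was 2.88, and its other probes gave 2.38 and 3.30. COXFA4L3, a mitochondrial protein related to a subunit of cytochrome c oxidase, was at 9.26, 10.26 and 10.28 untreated and 13.14, 13.10 and 13.18 with TNF, a change of 3.20 ± 0.22 (adjusted p = 2.51e-06) and 3.38 without replicate 3. For this gene replicate 1, not replicate 3, was the array apart, and 2 other probes gave 1.27 and 3.46. SLC25A24, a mitochondrial carrier of ATP, rose by 3.18 ± 0.20 (adjusted p = 1.19e-06) at its brightest probe, while its other probes gave −0.17 and 0.08. The probes of SLC25A24 thus disagree. MIR3142HG, whose promoter and miRNAs are shown above, was 6.25, 6.47 and 7.30 untreated and 9.42, 9.71 and 9.72 with TNF, a change of 2.94 ± 0.23 (adjusted p = 6.9e-06) and 3.26 without replicate 3, its highest untreated array.

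**Figure D1:**
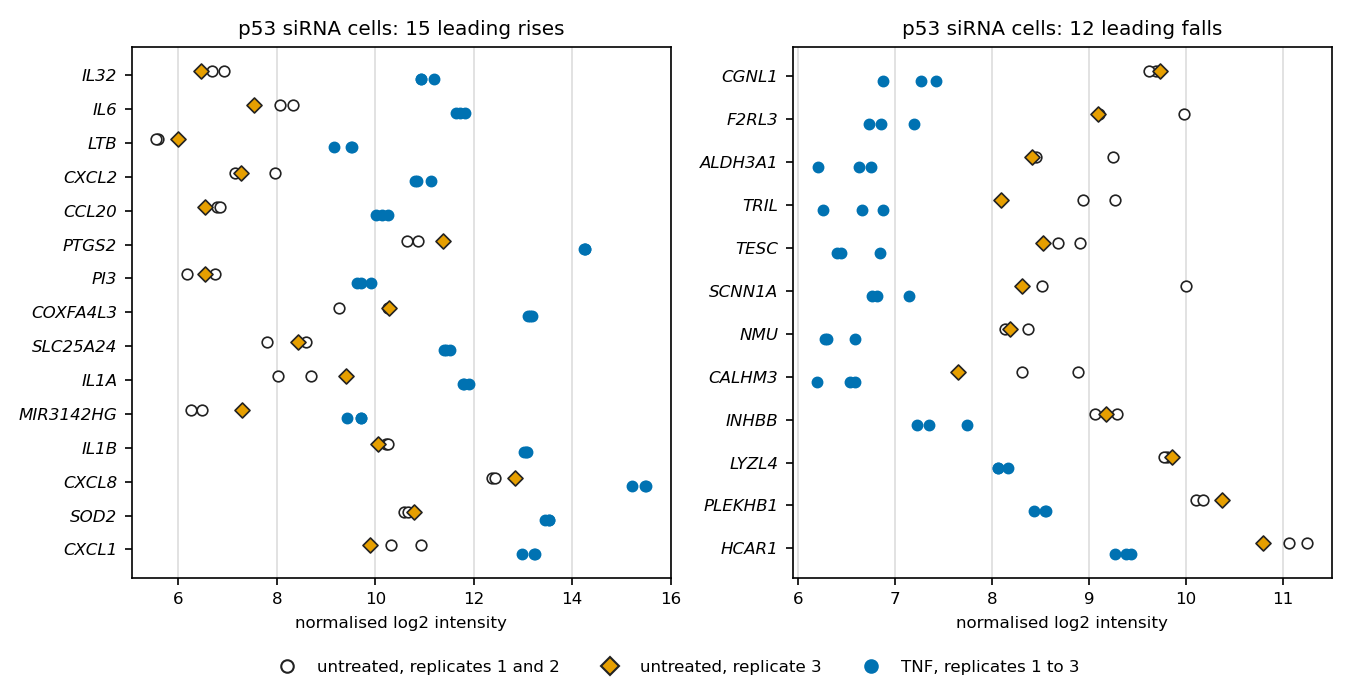
Normalised log2 intensity (x axis) of the 15 genes with the largest rises (left) and the 12 with the largest falls (right) among genes called with and without untreated replicate 3, 1 point per array, with replicate 3 as a diamond. TNF-treated and untreated arrays do not overlap in any row, which was a condition of the choice. IL1A and MIR3142HG are rows in which replicate 3 is the untreated array nearest to the treated ones, and in IL6 and CXCL1 it is the farthest.

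Some negative regulators of the pathway rose, 7 of the 13 tested. TNFAIP3 (A20), a ubiquitin-editing enzyme that shuts off IKK, went from 6.50, 6.63 and 6.60 to 8.74, 8.70 and 8.58, a change of 2.10 ± 0.15 (adjusted p = 3.41e-06) and 2.11 without replicate 3. ZC3H12A, a nuclease that degrades cytokine mRNAs, rose by 1.64 ± 0.14 (adjusted p = 2e-05), and NFKBIE (IkB-epsilon) by 1.55 ± 0.17 (adjusted p = 0.000111). Among these feedback inhibitors 0 fell with all arrays, and 8 rose and 0 fell without replicate 3, with medians of 0.85 and 0.90.

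Of 11 NF-kB and IKK subunits, 4 rose in both fits and 0 fell with all arrays, and 1 fell without replicate 3. That member was MAP3K14 (NIK), the kinase that starts the non-canonical pathway, with a change of −0.51 with all arrays (adjusted p = 0.0507) and −0.60 without replicate 3 (adjusted p = 0.0222). RELA, the main activating subunit of the canonical pathway, did not pass in either fit, with changes of 0.16 and 0.05. RELB, the partner of p52 in the non-canonical pathway, was 8.32, 8.65 and 8.72 untreated and 10.10, 10.15 and 10.18 with TNF, a change of 1.58 ± 0.12 (adjusted p = 6.9e-06). NFKB2, the precursor of p52, was 8.83, 8.95 and 9.47 untreated and 10.41, 10.57 and 10.52 with TNF, a change of 1.42 ± 0.15 (adjusted p = 0.000111) and 1.61 without replicate 3. The groups did not overlap for RELB or NFKB2. IKBKE, an IKK-related kinase, rose by 1.56 ± 0.18 (adjusted p = 0.00019).

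Of 15 genes of TNF receptor signalling, 2 rose and 0 fell with all arrays, 3 and 0 without replicate 3, and the median was −0.04. TRAF1, an adaptor bound to TNF receptor 2, was 8.29, 8.81 and 7.73 untreated and 10.52, 10.16 and 10.04 with TNF, a change of 1.96 ± 0.23 (adjusted p = 0.000178) and 1.69 without replicate 3. Its second probe gave 0.38. TRAF3, an adaptor that restrains the non-canonical pathway, rose by 1.21 ± 0.19 (adjusted p = 0.00177). The receptor-proximal genes as a list thus lay near the median of all genes, with TRAF1 and TRAF3 above it.

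The TNF superfamily had 6 of 21 tested genes higher and 2 lower in both fits. LTB, the beta subunit of the lymphotoxin heterotrimer, was not detected on any untreated array, with values of 5.59, 5.55 and 5.99, and was at 9.16, 9.51 and 9.53 with TNF. It was at least 7.76-fold higher with TNF (adjusted p = 4.09e-07), where the bound sets the mean of the treated arrays against the lowest detected signal on each untreated array, and at least 7.60-fold without replicate 3. A second LTB probe gave a log2 change of 1.52. TNFRSF9 (4-1BB), a costimulatory receptor, rose by 1.99 ± 0.13 (adjusted p = 2.51e-06), and TNFSF10 (TRAIL), a death ligand, by 1.72 ± 0.14 (adjusted p = 7.78e-06). TNFSF10 was 7.75, 7.48 and 8.0 untreated and 9.41, 9.51 and 9.50 with TNF. TNFRSF11B (osteoprotegerin), a decoy receptor for RANKL and TRAIL, fell by 0.72 ± 0.14 (adjusted p = 0.00692). The orphan death receptor TNFRSF21 fell by 0.63 ± 0.11 (adjusted p = 0.00468).

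Of 18 cytokine receptors tested, 5 rose and 0 fell with all arrays and 6 and 0 without replicate 3. IL1RAP, the shared chain of the interleukin-1 and interleukin-33 receptors, rose by 1.32 ± 0.19 (adjusted p = 0.00117), IL4R by 0.71 ± 0.15 (adjusted p = 0.0129) and IL6ST (gp130), the signalling chain of the interleukin-6 family, by 0.56 ± 0.14 (adjusted p = 0.0268). Among 20 Toll-like receptors and innate sensors, 5 rose and 0 fell, and 6 and 1 without replicate 3. IRAK2, a kinase downstream of the interleukin-1 receptor, was 11.42, 11.32 and 10.72 untreated and 12.85, 13.05 and 13.05 with TNF, a change of 1.83 ± 0.16 (adjusted p = 2.41e-05) and 1.61 without replicate 3. IRAK3, an inhibitor of the same signalling step, rose by 1.43 ± 0.18 (adjusted p = 0.000404), and the DNA sensor AIM2 by 0.66 ± 0.15 (adjusted p = 0.0209). Other members of these lists did not pass, among them the kinase IRAK1, at −0.18 (adjusted p = 0.404), and the interleukin-33 receptor IL1RL1, at −0.09 (adjusted p = 0.906).

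Of 32 interferon-stimulated genes, 1 rose and 3 fell with all arrays, where 3.95% of all genes tested rose and 3.85% fell. The count of rises is near that share. Without replicate 3 the counts were 1 and 8, against 6.91% and 6.82% of all genes, and the median went from −0.13 to −0.28. IFIT1, an antiviral protein that binds uncapped RNA, was 8.99, 9.10 and 9.26 untreated and 7.48, 7.48 and 7.71 with TNF, so it fell by 1.56 ± 0.11 (adjusted p = 2.85e-06). A second IFIT1 probe gave −0.02, so the probes of this gene disagree. OAS2, an oligoadenylate synthetase that activates RNase L, was 11.28, 10.46 and 9.78 untreated and 9.48, 9.49 and 9.62 with TNF. OAS2 fell by 0.98 ± 0.27 (adjusted p = 0.0452). Replicate 3 was its lowest untreated array, and the change without it was −1.34. IFIT2 fell by 0.47 ± 0.11 (adjusted p = 0.0258), while ISG20, an RNA exonuclease, rose by 1.21 ± 0.18 (adjusted p = 0.00153). Of 18 IRF, STAT and SOCS genes, 0 passed in either fit.

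Among 19 class I antigen presentation genes, 3 rose with all arrays and 4 without replicate 3. UBD (FAT10), a ubiquitin-like modifier that directs proteins to the proteasome, was 5.79, 6.09 and 6.46 untreated, with detection on 1 array, and 8.17, 8.11 and 8.10 with TNF, a change of 2.01 ± 0.18 (adjusted p = 2.99e-05). HLA-B rose by 0.65 ± 0.13 (adjusted p = 0.00984) and TAPBPL, a tapasin-related peptide editor, by 0.45 ± 0.11 (adjusted p = 0.0239). HLA genes are close in sequence, and whether the HLA-B probe reads others was not tested. CD83, a marker of dendritic cell maturation, was the 1 gene of 11 guanylate-binding proteins and checkpoint ligands to rise with all arrays, by 1.0 ± 0.17 (adjusted p = 0.00299), and 2 rose without replicate 3. Of 24 proteasome subunits, 1 rose with all arrays, PSMB7 at 0.39 ± 0.11 (adjusted p = 0.0439), and 5 without replicate 3, with medians of 0.21 both ways. Of all genes tested, 3.95% rose with all arrays and 6.91% without replicate 3.

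Acute phase and complement genes rose in 9 of 19 cases with all arrays and 10 without replicate 3, with 0 falls and a median of 0.51. PI3 (elafin), an inhibitor of neutrophil elastase, was 6.17, 6.75 and 6.53 untreated and 9.91, 9.71 and 9.63 with TNF, a change of 3.27 ± 0.17 (adjusted p = 4.09e-07) and 3.29 without replicate 3. TFPI2, a Kunitz-type inhibitor of serine proteases, was 7.54, 9.03 and 9.31 untreated and 10.96, 10.96 and 11.01 with TNF, a change of 2.35 ± 0.34 (adjusted p = 0.00117). Replicate 1 was far below the other untreated arrays for TFPI2, and the change without replicate 3 was 2.69. SAA1, serum amyloid A, rose by 1.99 ± 0.18 (adjusted p = 2.07e-05). SAA1 has a near-identical relative, and cross-reading by its probe was not tested.

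Of 22 metalloprotease and plasminogen genes, 6 rose and 1 fell with all arrays, 7 and 2 without replicate 3. MMP1, interstitial collagenase, was 6.13, 6.54 and 6.57 untreated and 8.95, 9.19 and 9.27 with TNF, a change of 2.72 ± 0.21 (adjusted p = 7.53e-06) and 2.80 without replicate 3. PLAUR, the urokinase receptor, rose by 0.92 ± 0.14 (adjusted p = 0.00171), and ADAMTS6, a secreted metalloprotease, by 1.19 ± 0.15 (adjusted p = 0.000379). TIMP4, a metalloprotease inhibitor, fell by 0.78 ± 0.15 (adjusted p = 0.00837). MMP9 was not detected on any of the 6 p53 siRNA arrays.

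Adhesion receptors and integrins had 7 of 19 genes higher and 1 lower with all arrays, and 9 and 3 without replicate 3. The list's median was 0.09 with all arrays and 0.40 without replicate 3. ICAM1, the ligand of leukocyte beta-2 integrins, was 8.40, 8.98 and 8.83 untreated and 10.92, 10.70 and 10.80 with TNF, a change of 2.07 ± 0.20 (adjusted p = 4.98e-05). ICAM2 rose by 1.25 ± 0.12 (adjusted p = 3.34e-05). ITGAV, the integrin alpha-V chain, ranged from 10.85 to 12.03 untreated, with replicate 3 the highest, and was 12.46, 12.34 and 12.42 with TNF. ITGAV rose by 1.12 ± 0.25 with all arrays (adjusted p = 0.0163) and by 1.49 without replicate 3, which lay near the treated level. ITGB4, the beta-4 chain of hemidesmosomes, fell by 1.57 ± 0.27 (adjusted p = 0.00386), and its second probe gave −2.03.

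In the extracellular matrix list, 3 of 25 genes rose and 4 fell with all arrays, 3 and 5 without replicate 3. The rises were TNC (tenascin-C, 1.15 ± 0.12, adjusted p = 0.000101), LOX (lysyl oxidase, which crosslinks collagen, 0.95 ± 0.19, adjusted p = 0.00804) and LAMC1 (a laminin chain, 0.78 ± 0.11, adjusted p = 0.000881). TGFBI, a secreted adhesion protein, fell by 1.01 ± 0.14 (adjusted p = 0.000711). THBS1 (thrombospondin-1) and COL13A1 (a transmembrane collagen) fell by 0.80 ± 0.17 (adjusted p = 0.0137) and 0.73 ± 0.10 (adjusted p = 0.000658). The list thus moved in both directions, with a median of −0.05.

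The leading falls were in genes of other kinds. CGNL1 (paracingulin), a scaffold of epithelial junctions, was 9.69, 9.62 and 9.73 untreated and 7.42, 7.27 and 6.88 with TNF, so it fell by 2.49 ± 0.14 (adjusted p = 4.51e-07). The change without replicate 3 was −2.47, and the untreated arrays were within a narrow band. F2RL3, the thrombin receptor PAR4, was 9.98, 9.10 and 9.09 untreated and 6.73, 6.86 and 7.20 with TNF, and fell by 2.46 ± 0.22 (adjusted p = 2.88e-05), while a second probe gave −0.21. The F2RL3 probes thus disagree. ALDH3A1, an aldehyde dehydrogenase that removes lipid peroxidation products, was 9.25, 8.45 and 8.41 untreated and 6.63, 6.21 and 6.75 with TNF, and fell by 2.17 ± 0.22 (adjusted p = 7.1e-05). TRIL, an accessory protein of Toll-like receptors, was 9.27, 8.94 and 8.09 untreated and 6.66, 6.26 and 6.88 with TNF, and fell by 2.16 ± 0.25 (adjusted p = 0.000159). For TRIL replicate 3 was the untreated array nearest to the treated ones, and the change without it was −2.50.

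TESC, a calcium-binding regulator of sodium-proton exchange, fell by 2.14 ± 0.15 (adjusted p = 2.51e-06). SCNN1A, the alpha subunit of the epithelial sodium channel, was 10.00, 8.51 and 8.31 untreated and 6.76, 6.81 and 7.14 with TNF, and fell by 2.04 ± 0.33 (adjusted p = 0.00249), and replicate 1 was its array apart. NMU (the neuropeptide neuromedin U) and CALHM3 (a calcium homeostasis modulator channel) both had a change of −1.84, with adjusted p-values of 3.31e-05 and 0.000535. INHBB, the subunit of activin B, was 9.29, 9.06 and 9.17 untreated and 7.23, 7.35 and 7.74 with TNF, and fell by 1.74 ± 0.15 (adjusted p = 1.47e-05). LYZL4, a lysozyme-like protein, PLEKHB1, a pleckstrin homology domain protein, and HCAR1, the lactate receptor, fell by 1.71, 1.70 and 1.67. In each of these genes the treated arrays were below every untreated array, which follows largely from how they were chosen. With TNF, TESC and NMU were detected on 1 of 3 arrays, and ALDH3A1, TRIL and CALHM3 on 2. The falls of those genes end near background, so their sizes are less certain.

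Junction and keratin genes moved both ways, 4 of 22 higher and 7 lower in both fits. CLDN1 (claudin-1), a tight junction strand protein, was 6.40, 7.30 and 7.32 untreated and 9.15, 9.52 and 9.43 with TNF, a change of 2.36 ± 0.22 (adjusted p = 3.33e-05). GJA1 (connexin 43) rose by 1.06 ± 0.16 (adjusted p = 0.00164) and GJB2 (connexin 26) by 0.82 ± 0.13 (adjusted p = 0.00187). KRT80 fell by 1.37 ± 0.17 (adjusted p = 0.000395) and KRT7 by 0.86 ± 0.16 (adjusted p = 0.00534), both keratins of the cytoskeleton. KRT19 and EPCAM, from the luminal list, fell by 0.56 ± 0.10 (adjusted p = 0.00354) and 0.62 ± 0.12 (adjusted p = 0.00838). Of 12 mesenchymal factors and markers, 1 rose with all arrays, CDH11 (a mesenchymal cadherin, 0.55 ± 0.14, adjusted p = 0.0378), and 4 rose and 1 fell without replicate 3. TFF3 and TFF2, trefoil peptides of mucous epithelia, fell by 1.48 ± 0.14 (adjusted p = 4.65e-05) and 1.10 ± 0.14 (adjusted p = 0.000418), 2 of 8 genes of their list.

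**Figure D2:**
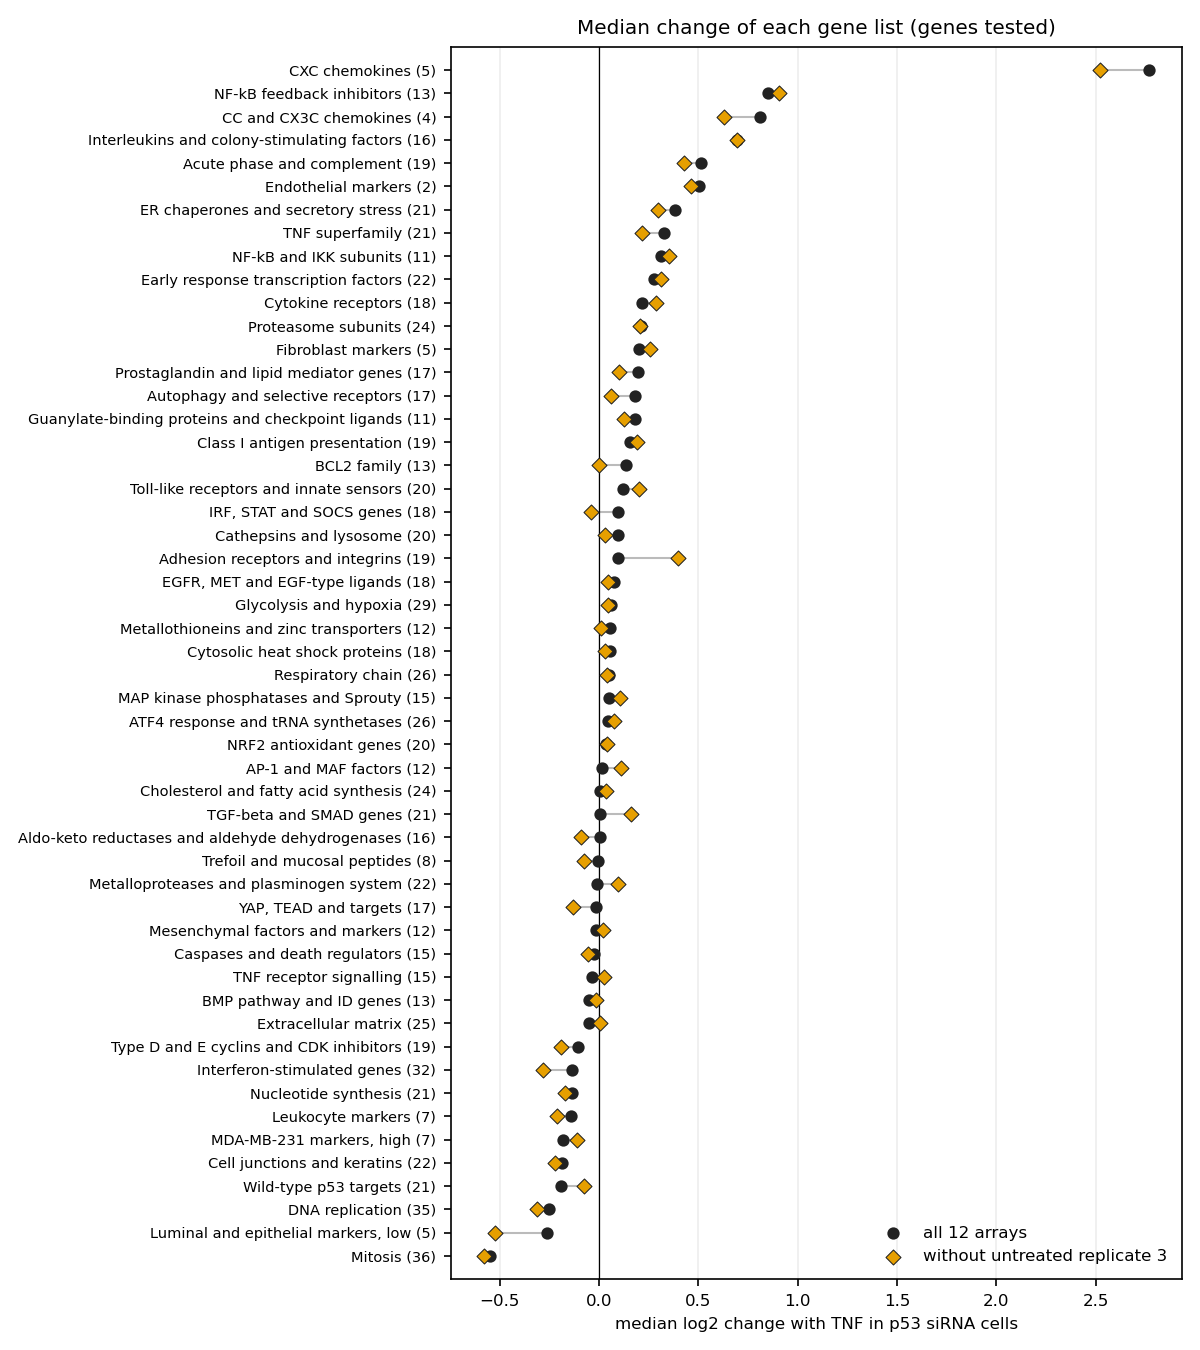
Median log2 change with TNF in p53 siRNA cells (x axis) for each of 52 gene lists, with the number of genes tested in brackets, for all 12 arrays (circles) and without untreated replicate 3 (diamonds). CXC chemokines lie highest at 2.77 and mitosis genes lowest at −0.55. The adhesion and integrin list moves from 0.09 to 0.40 when replicate 3 is left out.

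Only falls were called among mitosis genes. Of 36 tested, 13 fell and 0 rose with all arrays, 16 and 0 without replicate 3, and the medians were −0.55 and −0.58. KIF20A, a kinesin of the central spindle, was 11.83, 11.42 and 11.27 untreated and 10.66, 10.50 and 10.66 with TNF, and fell by 0.90 ± 0.14 (adjusted p = 0.00168). PLK1, a mitotic kinase, was 8.89, 8.57 and 8.59 untreated and 7.83, 7.94 and 7.75 with TNF, and fell by 0.84 ± 0.14 (adjusted p = 0.00264). KIF11, the spindle kinesin Eg5, fell by 0.90 ± 0.19 (adjusted p = 0.0129). In none of these genes did the groups overlap. In RNA from whole cultures, fewer cells of a kind and less RNA per cell cannot be told apart.

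In DNA replication the counts differed between the fits. With all arrays 3 of 35 fell and 0 rose, and without replicate 3 the counts were 12 and 0, with medians of −0.25 and −0.31. RFC3, a subunit of the clamp loader, fell by 0.74 ± 0.19 (adjusted p = 0.0316), MCM3, a subunit of the replicative helicase, by 0.49 ± 0.12 (adjusted p = 0.0283) and MCM10 by 0.66 ± 0.18 (adjusted p = 0.048). The MCM10 call was lost without replicate 3, at an adjusted p of 0.0509. In nucleotide synthesis 3 of 21 fell and 0 rose, and 5 and 0 without replicate 3. TYMS (thymidylate synthase) fell by 0.58 ± 0.13 (adjusted p = 0.0168), RRM1 (ribonucleotide reductase) by 0.55 ± 0.13 (adjusted p = 0.0235) and PAICS, a purine synthesis enzyme, by 0.40 ± 0.11 (adjusted p = 0.0484, and 0.0578 without replicate 3). CDKN1A, the CDK inhibitor p21, was 14.10, 13.99 and 13.37 untreated and 14.53, 14.55 and 14.52 with TNF. Its change was 0.71 ± 0.16 (adjusted p = 0.0166), and 0.49 without replicate 3, its lowest untreated array. Of 19 D and E cyclins and CDK inhibitors, CDKN1A alone rose with all arrays, and 4 fell without replicate 3.

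Of 21 targets of wild-type p53, 2 rose and 1 fell in both fits. Besides CDKN1A, AEN, an apoptosis-enhancing nuclease, rose by 0.61 ± 0.13 (adjusted p = 0.0137), and GADD45A, a stress gene that slows the cell cycle, fell by 0.48 ± 0.13 (adjusted p = 0.0464). The median was −0.19 with all arrays and −0.07 without replicate 3.

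Genes of cell death moved in both directions. Of 15 caspases and death regulators, 4 rose and 2 fell in either fit, and of 13 BCL2 family genes 2 rose and 1 fell, 3 and 2 without replicate 3. BID, which links death receptors to mitochondria, was 8.72, 9.09 and 8.87 untreated and 9.91, 10.03 and 10.16 with TNF, a change of 1.14 ± 0.12 (adjusted p = 0.000106), with other probes at −0.19 and 1.25. MLKL, the effector of necroptosis, rose by 0.78 ± 0.16 (adjusted p = 0.00968), CASP4, an inflammatory caspase, by 0.59 ± 0.11 (adjusted p = 0.00486), and CFLAR (c-FLIP), an inhibitor of caspase-8, by 0.49 ± 0.12 (adjusted p = 0.0289). MCL1, a survival factor, rose by 0.62 ± 0.13 (adjusted p = 0.00957), while BCL2L1 (BCL-XL) fell by 0.64 ± 0.15 (adjusted p = 0.0191). Their second probes gave smaller changes, 0.11 for MCL1 and −0.18 for BCL2L1. CASP2 fell by 0.42 ± 0.10 (adjusted p = 0.0303). CASP8 had a change of −0.73 ± 0.19 (adjusted p = 0.0339) that did not pass without replicate 3, at an adjusted p of 0.0702, and its second probe gave −0.02.

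Of 22 early response transcription factors, 6 rose and 3 fell with all arrays, 9 and 3 without replicate 3. CEBPD, which acts with NF-kB on acute phase genes, was 10.57, 10.80 and 10.96 untreated and 12.02, 12.11 and 12.10 with TNF, a change of 1.30 ± 0.11 (adjusted p = 2e-05). CEBPB rose by 1.18 ± 0.14 (adjusted p = 0.000233) and ETS2 by 0.94 ± 0.14 (adjusted p = 0.00133). KLF10, induced by TGF-beta, fell by 0.89 ± 0.20 (adjusted p = 0.0184), the Notch target HES1 by 0.70 ± 0.18 (adjusted p = 0.0334) and KLF2 by 0.66 ± 0.12 (adjusted p = 0.00474). Of 12 AP-1 and MAF factors 2 rose in both fits, JUNB by 0.67 ± 0.12 (adjusted p = 0.00426) and MAFG by 0.52 ± 0.11 (adjusted p = 0.0126). The list of MAP kinase phosphatases and Sprouty genes had 2 rises, DUSP1 (0.93 ± 0.12, adjusted p = 0.000399) and DUSP16 (0.71 ± 0.15, adjusted p = 0.0137), and 1 fall, SPRY1 (−0.91 ± 0.11, adjusted p = 0.00018), among 15 genes, and 4 and 2 without replicate 3. DUSP1 and DUSP16 inactivate p38 and JNK, and SPRY1 inhibits receptor tyrosine kinase signalling.

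Growth factor genes gave single large changes within lists of little net movement. BMP2, a bone morphogenetic protein, was 8.56, 9.01 and 9.29 untreated and 10.80, 10.71 and 10.64 with TNF, a change of 1.76 ± 0.20 (adjusted p = 0.000124), the 1 rise among 13 BMP pathway and ID genes, of which 2 fell without replicate 3. Of 21 TGF-beta and SMAD genes 1 rose and 3 fell, 1 and 4 without replicate 3. TGFBR2, the type II receptor, rose by 0.59 ± 0.10 (adjusted p = 0.00347), and besides INHBB, LTBP3, which holds latent TGF-beta in the matrix, fell by 0.84 ± 0.20 (adjusted p = 0.0257) and TGFB2 by 0.57 ± 0.13 (adjusted p = 0.0216). In the list of EGFR, MET and EGF-type ligands 4 of 18 rose and 2 fell, 6 and 4 without replicate 3. ERRFI1, an inhibitor of EGFR, rose by 0.67 ± 0.14 (adjusted p = 0.013), LRIG1, another such inhibitor, by 0.58 ± 0.15 (adjusted p = 0.0391) and HBEGF, a ligand, by 0.56 ± 0.13 (adjusted p = 0.0231). A second LRIG1 probe gave 0.19. IGFBP4 and IGFBP7, secreted proteins that bind insulin-like growth factors, fell by 0.99 ± 0.19 (adjusted p = 0.00637) and 0.51 ± 0.09 (adjusted p = 0.00541). In the list of YAP, TEAD and their targets 1 of 17 rose, F3 (tissue factor, 0.65 ± 0.14, adjusted p = 0.0161), and 1 fell, TGFB2, while 4 rose and 2 fell without replicate 3. With all arrays, 1 call in a list of this size, as also among the BMP genes, is near the 3.95% higher and 3.85% lower of all genes.

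Metabolic and stress lists moved little. In glycolysis and hypoxia 4 of 29 rose and 0 fell, 5 and 2 without replicate 3. VEGFA, the endothelial growth factor, was 11.19, 10.91 and 9.40 untreated and 11.61, 11.68 and 11.81 with TNF. Its change of 1.20 ± 0.34 (adjusted p = 0.0488) became 0.65 without replicate 3 (adjusted p = 0.00382), the lowest untreated array by a wide margin. BNIP3, a mitophagy receptor, rose by 0.60 ± 0.10 (adjusted p = 0.00249) and ADM, adrenomedullin, by 0.58 ± 0.15 (adjusted p = 0.0362). Of 26 respiratory chain genes 0 passed with all arrays and 3 rose without replicate 3. Of 24 cholesterol and fatty acid synthesis genes 0 passed with all arrays and 1 rose without replicate 3, and of 18 cytosolic heat shock genes 0 passed either way.

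Endoplasmic reticulum chaperones rose in 4 of 21 cases with 0 falls, 5 and 0 without replicate 3, with a median of 0.38. They included DNAJB9 (0.89 ± 0.14, adjusted p = 0.00152), HSPA5 or BiP (0.77 ± 0.13, adjusted p = 0.00342) and MANF (0.48 ± 0.13, adjusted p = 0.0474). In the ATF4 and tRNA synthetase list 2 of 26 rose and 2 fell, 1 and 6 without replicate 3. DDIT3 (CHOP), a stress transcription factor, rose by 0.71 ± 0.17 (adjusted p = 0.0244), and TRIB3, a pseudokinase, had a change of 0.64 ± 0.17 (adjusted p = 0.0372, and 0.069 without replicate 3). PSPH and PSAT1, enzymes of serine synthesis, fell by 0.60 ± 0.10 (adjusted p = 0.00294) and 0.57 ± 0.14 (adjusted p = 0.0289).

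Besides SOD2, PRDX1, a peroxiredoxin, rose by 0.33 ± 0.09 (adjusted p = 0.0486) among 20 NRF2 and antioxidant genes, and CAT, catalase, fell by 0.73 ± 0.11 (adjusted p = 0.00141). The list's counts were 2 rises and 1 fall with all arrays and 4 and 2 without replicate 3. In the list of aldo-keto reductases and aldehyde dehydrogenases 3 of 16 rose and 5 fell, 4 and 6 without replicate 3. AKR1C2, a steroid-metabolising reductase, was 10.98, 11.74 and 11.40 untreated and 12.54, 12.59 and 12.55 with TNF, a change of 1.19 ± 0.16 (adjusted p = 0.00058). AKR1C3 rose by 0.59 ± 0.09 (adjusted p = 0.00193) and ALDH1A3, which makes retinoic acid, by 0.87 ± 0.14 (adjusted p = 0.00276), while ALDH3B1 and ALDH1B1 fell by 0.89 ± 0.16 (adjusted p = 0.00495) and 0.63 ± 0.12 (adjusted p = 0.00529), beside ALDH3A1. The AKR1C genes are close relatives, and cross-reading between their probes was not tested. SLC39A14, a zinc importer, was the 1 rise among 12 metallothioneins and zinc transporters (0.58 ± 0.13, adjusted p = 0.0201).

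Of 20 cathepsin and lysosome genes 3 rose and 1 fell, 5 and 2 without replicate 3. The cystatins CST1 and CST4, secreted inhibitors of cysteine proteases and close relatives, rose by 0.85 ± 0.15 (adjusted p = 0.00367) and 0.73 ± 0.13 (adjusted p = 0.00483), and CTSL, cathepsin L, by 0.69 ± 0.15 (adjusted p = 0.0161). CTSD, cathepsin D, fell by 0.59 ± 0.11 (adjusted p = 0.00446). Among 17 autophagy genes 3 rose and 0 fell, 4 and 0 without replicate 3. OPTN (optineurin), an autophagy receptor that also restrains NF-kB, rose by 0.93 ± 0.17 (adjusted p = 0.00553), ATG7 by 0.59 ± 0.13 (adjusted p = 0.018) and SQSTM1 (p62), another receptor, by 0.58 ± 0.13 (adjusted p = 0.0152).

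Single markers of other cell types moved as well. LYZ, lysozyme, was 11.11, 10.92 and 10.36 untreated and 9.33, 9.25 and 9.21 with TNF, and fell by 1.53 ± 0.19 (adjusted p = 0.000379), and its second probe gave −0.19. It was the 1 of 7 tested leukocyte markers to change, and the list's summed linear level was 10077 to 12758 untreated and 9391 to 10491 with TNF. PECAM1, an endothelial adhesion protein, rose by 0.79 ± 0.16 (adjusted p = 0.00989), and the summed endothelial list, of which 2 of 6 markers were tested, was 597 to 740 untreated and 1027 to 1219 with TNF. LUM (lumican), a matrix proteoglycan, rose by 0.82 ± 0.20 (adjusted p = 0.0289) among 5 of 8 fibroblast markers tested, whose sums were 797 to 1006 and 1068 to 1177. As given above, some members of each of these lists were detected on all 6 arrays and others did not pass the detection filter. The part of other cells in any result was not tested. From the list of MDA-MB-231 markers, CD44 rose by 0.42 ± 0.09 (adjusted p = 0.0156) and CAV1 fell by 0.62 ± 0.13 (adjusted p = 0.0119).

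Genes called only without untreated replicate 3 were those in which that array lay toward the treated ones. Among the 815 such genes, replicate 3 was on the TNF side of the other untreated arrays in 808, which follows largely from how these genes were chosen. Among the 902 genes called both ways it was on that side in 529 (58.6%). B3GNT5, a glycosyltransferase of lacto-series glycolipids, was 6.21 and 6.20 in untreated replicates 1 and 2, 7.88 in replicate 3, and 7.34, 8.18 and 7.90 with TNF. Its change was 1.04 ± 0.37 with all arrays (adjusted p = 0.12). Replicate 3 was the only untreated array that detected B3GNT5, and without it the rise was at least 2.51-fold (adjusted p = 0.000876). ZEB2, a repressor of epithelial genes, was 6.30, 6.23 and 7.75 untreated and 7.15, 7.87 and 7.88 with TNF, with adjusted p-values of 0.18 and 0.00537. It too was detected untreated on replicate 3 only, and without that array the rise was at least 2.23-fold. In both genes replicate 3 lay within the range of the treated arrays.

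Also called only without replicate 3 were DNER (a Notch ligand), SEC24A (a coat protein of secretory vesicles), ANXA4 (an annexin) and TRIM36 (a ubiquitin ligase). Their changes were 1.08, 0.93, 0.91 and 0.96 with all arrays and 1.57, 1.52, 1.47 and 1.30 without replicate 3. The 3 other TRIM36 probes gave −0.09, −0.02 and 0.06 with all arrays, so its probes disagree. WIPF1 (an actin regulator) and NUDCD1, called the same way, had changes of 0.85 and 0.70 with all arrays. A second WIPF1 probe gave 0.29. Replicate 3 was the only untreated array that detected WIPF1 or NUDCD1, and without it the rises were at least 1.89-fold and 1.98-fold. Among falls, SMAD6, an inhibitor of BMP signalling, was 10.21, 9.84 and 8.73 untreated and 8.71, 8.83 and 8.87 with TNF. Its change was −0.79 ± 0.28 with all arrays (adjusted p = 0.121) and −1.22 without replicate 3 (adjusted p = 0.000362). PI16, a secreted peptidase inhibitor, was 10.65, 9.75 and 8.68 untreated and 8.44, 8.76 and 8.46 with TNF, with adjusted p-values of 0.0763 and 0.00142. CREB3L3, RBL1, MB, MLXIPL, E2F2 and DOT1L, which include an E2F factor and an E2F-binding pocket protein (RBL1), had changes of −0.98, −0.89, −0.99, −0.52, −0.71 and −0.80 with all arrays and −1.51, −1.32, −1.32, −1.25, −1.15 and −1.14 without replicate 3. With all arrays, other probes gave −0.75 and −0.05 for MB and −0.74 for MLXIPL. MLXIPL, a glucose-sensing transcription factor, was at 9.80, 9.03 and 7.23 untreated and 8.11, 8.65 and 7.74 with TNF, so that replicate 3 lay below every treated array.

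**Figure D3:**
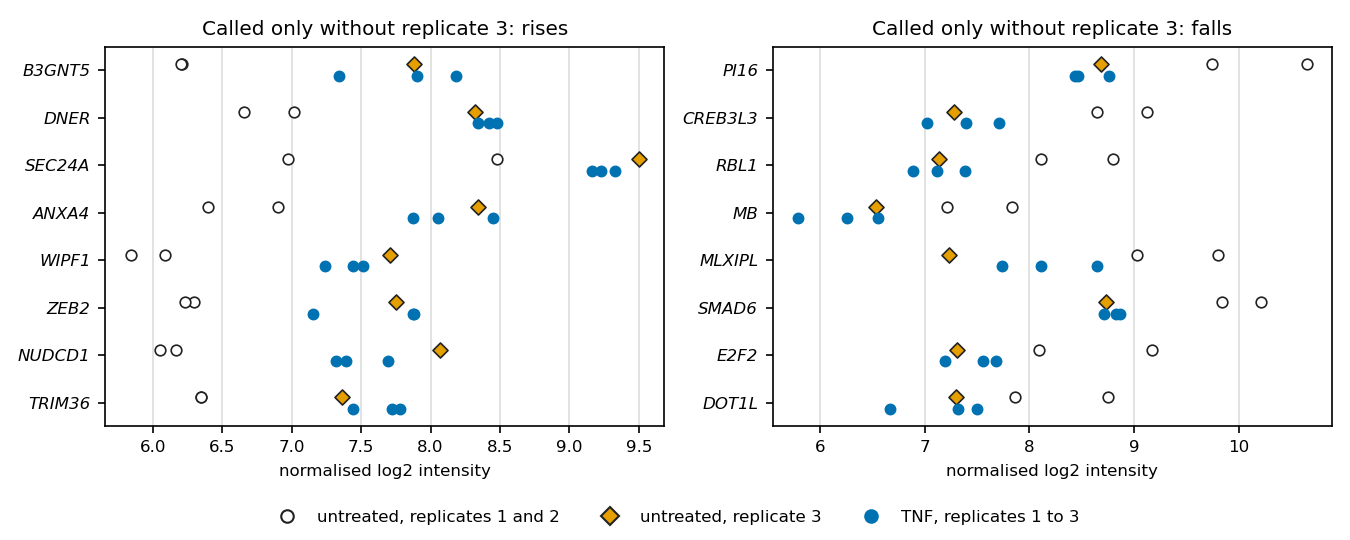
Normalised log2 intensity (x axis) of 8 rises and 8 falls called without untreated replicate 3 and not with it, 1 point per array, with replicate 3 as a diamond. Replicate 3 lies among or next to the TNF-treated arrays in each row, for example at 7.88 for B3GNT5 and at 8.73 for SMAD6. The genes were chosen for this difference between the fits.

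Fewer genes went the other way. Of the 74 called only with replicate 3, 29 were higher and 45 lower with TNF. PLA2G4A, another cytosolic phospholipase A2, was not detected untreated (5.74, 6.29 and 6.05) and was at 6.82, 6.55 and 7.63 with TNF, at least 1.47-fold higher, with an adjusted p of 0.0335 with replicate 3 and 0.0509 without. It was not detected on any control siRNA array either, so it entered the test through the TNF-treated p53 siRNA group. ARFIP2, MARCHF3 and SEMA6A had changes of 0.95, 0.81 and 0.78, with adjusted p-values of 0.0502, 0.0597 and 0.077 without replicate 3. TET1, an enzyme that oxidises methylcytosine, was not detected on the treated arrays and was at least 1.73-fold lower there, with an adjusted p of 0.0229 with replicate 3 and 0.0534 without. CELSR2 (a cadherin), G2E3 (a ubiquitin ligase) and ZFYVE28, not detected with TNF, had adjusted p-values of 0.0277, 0.0261 and 0.0232 with replicate 3 and 0.066, 0.0604 and 0.0533 without. These genes lay close to the threshold in both fits.

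The TNF effect in p53 siRNA cells was set beside that in control siRNA cells, whose group means come from other arrays. Both effects use the same normalisation, filter and estimate of spread for each gene, so their calls are not independent. In control siRNA cells 1199 genes (9.59%) were called, 612 higher (4.89%) and 587 lower (4.69%), and of the p53 siRNA calls 309 rises and 215 falls were also called there in the same direction and 1 in the opposite direction. The difference itself, taken as the change with p53 siRNA less the change with control siRNA, passed for 27 genes (0.216%), 10 higher (0.08%) and 17 lower (0.136%) in p53 siRNA cells. All 27 were also among the 132 genes (1.06%) that passed without replicate 3, 65 higher (0.52%) and 67 lower (0.536%). Of 396 genes called in both p53 siRNA fits and not in control siRNA cells, the difference passed with and without replicate 3 in 5. For the rest of these genes no difference in response was shown.

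A level in a group where a gene was not detected is not above background, so a fitted difference that uses one is not an exact size, and the order of such genes is not a ranking of response. Among genes with a positive difference (the change with p53 siRNA less that with control siRNA), this holds for PI3, EOMES and ABCA13. The log2 change of PI3, 3.27 in p53 siRNA cells, stood beside a fitted 1.10 in control siRNA cells, where it was not detected without TNF and rose at least 1.55-fold, and the fitted difference was 2.17 ± 0.25 (adjusted p = 0.00505, and 0.00742 without replicate 3). MT1E, a metallothionein that binds zinc and copper, was 14.82, 14.97 and 14.59 untreated and 14.89, 14.85 and 14.96 with TNF, which overlap, and changed by −1.52 in control siRNA cells. Its difference was 1.63 ± 0.27 (adjusted p = 0.0359). Metallothioneins are near-identical, another MT1E probe gave −0.18 in p53 siRNA cells, and cross-reading was not tested. GJA1 was 6.88, 6.87 and 7.33 untreated and 8.0, 8.15 and 8.12 with TNF, and its difference from control siRNA cells, where the change was −0.43, was 1.49 ± 0.23 (adjusted p = 0.0291).

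AKR1C2 changed by 1.19 in p53 siRNA cells and by −0.18 in control siRNA cells, a difference of 1.37 ± 0.22 (adjusted p = 0.0359). EOMES, a T-box transcription factor, was at 5.88, 6.26 and 6.44 untreated and 7.22, 7.41 and 7.32 with TNF, and was not detected on any control siRNA array, with a fitted difference of 1.30 ± 0.21 (adjusted p = 0.0359). ABCA13, a lipid transporter, was not detected in untreated p53 siRNA cells and rose there at least 2.78-fold, and was not detected on any control siRNA array, with a fitted difference of 1.21 ± 0.20 (adjusted p = 0.0359). ABCA13 therefore entered the test through the TNF-treated p53 siRNA group. So did EOMES, which was otherwise detected on 1 untreated p53 siRNA array only. RGCC, a cell cycle regulator, was 11.82, 12.44 and 12.24 untreated and 11.74, 11.72 and 11.66 with TNF (adjusted p = 0.0855), and fell by 1.65 in control siRNA cells, a difference of 1.19 ± 0.21 (adjusted p = 0.0496). ZNF300P1, a pseudogene transcript, changed by 0.60 and by −0.57 in the respective cells, a difference of 1.18 ± 0.18 (adjusted p = 0.0297). All 8 differences also passed without replicate 3, which was a condition of the choice, but most did not hold under other alternatives. PI3 passed when any 1 TNF-treated p53 siRNA array was left out, while MT1E, GJA1, AKR1C2, EOMES, RGCC and ZNF300P1 did not, and of these 3 fits ABCA13 passed only in that without TNF replicate 3. Over all genes, 1, 1 and 2 differences in this direction passed without TNF replicate 1, 2 and 3, against 10 with all arrays, 1 passed under median scaling (PI3) and 3 with the replicate number as a block, PI3 and MT1E among them.

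MMP9, the gelatinase that degrades basement membrane collagen, was detected on the 3 TNF-treated control siRNA arrays and on none of the other 9. In p53 siRNA cells it was at 5.48, 5.49 and 5.55 untreated and 5.56, 5.60 and 5.73 with TNF, and rose at least 6.06-fold in control siRNA cells. MMP9 therefore entered the test through that group, and the fitted difference, taken against levels not above background, was −3.33 ± 0.13 (adjusted p = 1.43e-07, and 6.16e-07 without replicate 3). CTSW and CTSS, cathepsins of immune cells, were likewise not detected on any of the 6 p53 siRNA arrays and rose at least 3.56-fold and 1.66-fold in control siRNA cells, with fitted differences of −1.79 ± 0.19 (adjusted p = 0.00493) and −1.52 ± 0.19 (adjusted p = 0.00558). Both also entered the test through the TNF-treated control siRNA group. EBI3, a subunit of interleukin-27 and interleukin-35, was 5.93, 5.89 and 6.23 untreated, not detected, and 7.34, 7.47 and 8.0 with TNF. It rose at least 2.23-fold in p53 siRNA cells and at least 9.98-fold in control siRNA cells, neither untreated group detecting it, with a fitted difference of −2.02 ± 0.23 (adjusted p = 0.00505).

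CXCL10, a chemokine for T cells, rose in both, from 6.73, 6.63 and 6.23 to 8.97, 9.22 and 9.18 in p53 siRNA cells, a change of 2.59 ± 0.15 (adjusted p = 5.67e-07). Its change in control siRNA cells was 4.36, and the difference was −1.77 ± 0.21 (adjusted p = 0.00505). LTB rose in both as well, with a log2 change of 5.54 in control siRNA cells, where 1 of 3 untreated arrays detected it, and a fitted difference of −1.85 ± 0.28 (adjusted p = 0.0254). IDO1, the enzyme that degrades tryptophan, was 6.20, 5.77 and 6.45 untreated and 6.80, 6.48 and 7.03 with TNF. It passed in p53 siRNA cells only without replicate 3 (adjusted p = 0.064 and 0.0203), rose at least 4.68-fold in control siRNA cells, where it was not detected without TNF, and had a fitted difference of −2.0 ± 0.27 (adjusted p = 0.00816). SERPINA3, an acute phase protease inhibitor, overlapped between the p53 siRNA groups, at 6.17, 6.21 and 6.49 against 6.34, 6.76 and 6.62, and differed from its change of 1.82 in control siRNA cells by −1.54 ± 0.19 (adjusted p = 0.00572). IL1B rose by 2.88 in p53 siRNA cells and 3.75 in control siRNA cells, a difference of −0.87 ± 0.15 at the edge of the threshold (adjusted p = 0.0496, and 0.0227 without replicate 3). IFIT1, at its brighter probe, fell by 1.56 in p53 siRNA cells and changed by −0.32 in control siRNA cells, a difference of −1.24 ± 0.15 (adjusted p = 0.00558). For CXCL8 the difference was −0.99 with all arrays (adjusted p = 0.084) and −0.84 without replicate 3, where it passed (adjusted p = 0.0425). For the other leading rises, IL32, IL6, CXCL2, CCL20, PTGS2, COXFA4L3, SLC25A24, IL1A, MIR3142HG, SOD2 and CXCL1, the difference did not pass in either fit, which does not show that the responses were alike. The LTB difference did not pass when any 1 TNF-treated p53 siRNA array was left out.

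DNA replication genes gave 27 falls of 35 in control siRNA cells with a median of −0.81, beside 3 falls and −0.25 in p53 siRNA cells. The difference passed for 0 of the 35 genes with all arrays and was higher in p53 siRNA cells for 6 without replicate 3. Mitosis genes had 15 falls of 36 in control siRNA cells with a median of −0.54, beside 13 and −0.55, and the difference passed for 0 genes in either fit.

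**Figure D4:**
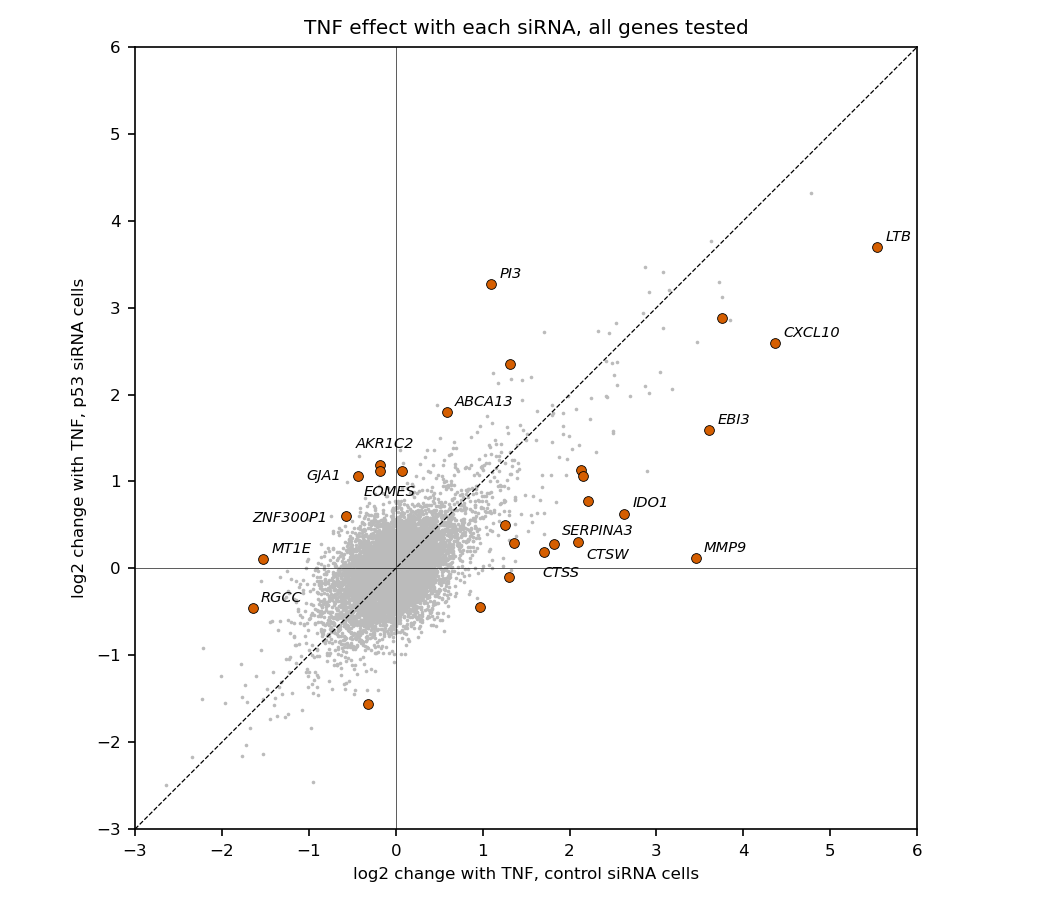
Log2 change with TNF in control siRNA cells (x axis) against that in p53 siRNA cells (y axis) for 12507 genes. Coloured points are the 27 genes whose difference passed with and without untreated replicate 3, with 16 of them labelled, and the dashed line marks equal change. MMP9 lies at 3.45 and 0.12, and PI3 at 1.10 and 3.27.

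The count of calls depended on the arrays and settings. Leaving out 1 TNF-treated array gave 557 to 587 genes, leaving out untreated replicates 1, 2 or 3 gave 827, 1127 or 1717, and a fit of the 6 p53 siRNA arrays alone gave 310. In that last fit 86 of the 192 named genes no longer passed. The number of arrays limits the precision of all these values.

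**Figure D5:**
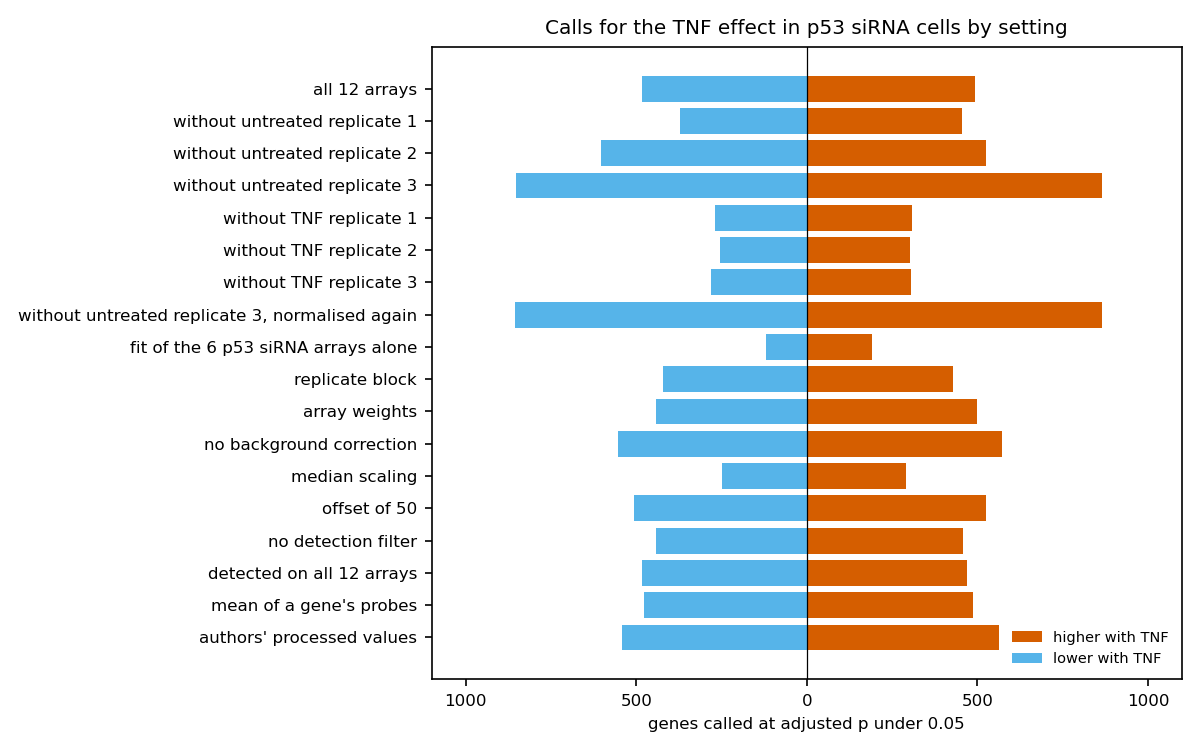
Number of genes called at an adjusted p under 0.05 for the TNF effect in p53 siRNA cells (x axis, rises to the right and falls to the left of 0) under each setting (rows). The count runs from 310 in the fit of the 6 arrays alone to 1721 without untreated replicate 3 after normalising again, with 976 for all 12 arrays.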

How the data were processed

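Each array's deposited columns are an intensity and a detection p-value, per the file headers, over 47322 probes. The submitters' processing notes name GenomeStudio (version not given in the sources used here). The deposited intensities were not normalised, and were background-corrected from the detection p-values and quantile normalised with neqc of limma 3.58.1 in R 4.3.3 (offset 16). Probes detected at p under 0.05 on at least 3 of 12 arrays (23079) were kept, named from the platform annotation (30107 probes with 1 gene, 30068 matched by Entrez ID to RefSeq), and the brightest probe stood for each of 12507 genes. The target of the p53 siRNA is not reported here, and its depletion was not checked. One limma model with 4 group means was fitted to all 12 arrays (8 residual and 4.03 prior degrees of freedom), and again without untreated replicate 3. Tests were 2-sided, and p-values were adjusted over all genes by the Benjamini-Hochberg method. A gene undetected throughout a group has only a bound. Other probes are printed for some genes only, and some of those not printed gave smaller changes, such as −0.23 for LTBP3 and for ALDH3B1. The leading genes are the 15 largest rises and 12 largest falls called in both fits. They also had no overlap between the 2 groups and detection on all 3 arrays of at least 1 group. Also named are up to 3 genes called in each direction of each of 52 lists (884 of 1089 members tested). The rest are up to 8 or 4 called in 1 fit only, and the 8 largest differences between siRNAs each way among those that passed in both fits. The members and lists were chosen with earlier results of these data known. The authors' processed intensities, with a median of 241.6 on each array, a scale that runs with the signals (correlation 0.999 or more) and a normalisation not given in the sources used here, served as an alternative. The script was tested on simulated data.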

Additional observations from a re-analysis of the deposited data

Results flagged for a closer look

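For 18 named genes the TNF effect differed between the siRNAs by a test of the difference itself, at an adjusted p under 0.05. The test was the limma interaction term over all 12 arrays. All 18 also passed without untreated replicate 3. For the 16 with the largest fitted differences, passing in both fits was a condition of the choice. Of the 16 with the largest fitted differences, 8, 8 and 7 no longer passed without TNF replicate 1, 2 or 3, 7 under median scaling and 6 with the replicate number as a block. Most of them were genes with a positive difference. The log2 change with p53 siRNA less that with control siRNA was positive for PI3 (2.17), MT1E (1.63), GJA1 (1.49), AKR1C2 (1.37), EOMES (1.30), ABCA13 (1.21), RGCC (1.19) and ZNF300P1 (1.18). It was negative for MMP9 (−3.33), EBI3 (−2.02), IDO1 (−2.0), LTB (−1.85), CTSW (−1.79), CXCL10 (−1.77), SERPINA3 (−1.54), CTSS (−1.52), IFIT1 (−1.24) and IL1B (−0.87). The sign is not the size of a response. MT1E and RGCC changed by 0.10 and −0.46 with p53 siRNA and by −1.52 and −1.65 with control siRNA. IFIT1 changed by −1.56 and −0.32 in the same order. Several of these are fitted differences that use levels not above background and are not exact sizes. MMP9, CTSW and CTSS were not detected on any p53 siRNA array, EOMES and ABCA13 on any control siRNA array, EBI3 in either untreated group, LTB and ABCA13 in untreated p53 siRNA cells, and PI3, IDO1, MMP9, CTSW and CTSS in untreated control siRNA cells. The IFIT1 value comes from the brighter of 2 probes that disagree. Both siRNAs were each compared with their own untreated cells, and effects of the siRNAs outside p53 were not tested.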

How the results depend on the processing

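The main counts were 976 genes for the TNF effect with all arrays, 1717 without untreated replicate 3, and 27 for the difference between siRNAs. Leaving out 1 replicate at a time gave 557 to 1717, 1060 to 2073 and 11 to 132. Without untreated replicate 3 and after normalising again, the TNF effect had 1721 calls and the difference 130. A fit of the p53 siRNA arrays alone gave 310 (190 higher, 120 lower, 61.3% higher against 50.6%) and, without replicate 3, 754 (425 and 329). Fewer arrays then estimate the spread, and the control siRNA groups, whose arrays varied less than the untreated p53 siRNA arrays, no longer enter it. Array weights gave 941 and, without replicate 3, 891. Median scaling gave 542 calls (292 higher, 250 lower) and 12 differences (1 and 11), and without replicate 3 it gave 1342 (1015 and 327, 75.6% higher against 50.3%). With all arrays the median log2 change of all genes was −0.011 under median scaling, a value that does not describe the fit without replicate 3. For the difference, no background correction gave 58 (28 and 30), the authors' values 55 (27 and 28) and detection on all 12 arrays, with 9897 genes tested, 5 (3 and 2). The causes were not tested. The replicate block gave 850 calls, 1394 without replicate 3 and 17 differences (3 higher, 14 lower), and same-numbered p53 siRNA arrays correlated at −0.03, 0.07 and 0.03 in their deviations, so the numbers were not taken to pair the samples. Over 3215 values of named genes under the alternatives, 2735 kept their direction and side of the threshold, 421 no longer passed, 57 newly passed and 2 turned sign. Leaving out 1 replicate, the MLXIPL log2 change ran from −1.25 to 0.0349, and the MT1E log2 change was −0.039 as the mean of its probes. Of 884 list medians, 631 moved by less than the replicate spread. Of the 16 largest fitted differences between siRNAs, 6 no longer passed with the replicate block, 7 under median scaling and 8, 8 and 7 without TNF replicate 1, 2 and 3. Genes near background have the least certain changes.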

Other observations

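Of the 23079 probes kept, 6230 had no single gene name here and were in no count above. With all arrays 102 of them were higher and 71 lower with TNF in p53 siRNA cells (2.78%, against 5.73% of the probes with 1 gene), in a limma fit across all kept probes. Without untreated replicate 3 the counts were 162 and 145, and 150 probes were called in both fits. The unnamed probe ILMN_1701424 had values of 11.02, 11.30 and 11.17 untreated and 14.10, 14.10 and 14.16 with TNF, a change of 2.95 ± 0.11 (adjusted p = 4.3e-08). ILMN_1706519 was 7.14, 6.95 and 8.26 untreated and 10.22, 10.17 and 10.22 with TNF, a change of 2.76 ± 0.27 (adjusted p = 6.29e-05), and 3.16 without replicate 3, its highest untreated array. In both probes the treated arrays lay far above the untreated ones. The array weights estimated by limma were 0.447, 0.812 and 0.147 for untreated replicates 1, 2 and 3 and 1.55 to 1.75 for the TNF-treated arrays. Replicate 3 was thus the least like its group, and replicates 1 and 2 also had lower weights than the treated arrays.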
